A study of Mus musculus with 8 samples.

Results

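Translation initiation factor genes were described here as every protein-coding gene on chromosomes 1 to 19 whose symbol starts with Eif followed by a digit from 1 to 6, in RefSeq's annotation of GRCm38.p6 (the mm10 assembly). The rule found 53 genes among 20665 autosomal protein-coding genes, and it used no measured value. The name covers the subunits of the initiation factors and also the kinases and binding proteins that regulate them. H3K79me2, dimethylation of lysine 79 of histone H3, had been profiled by ChIP-seq in cultures of mouse spermatogonial stem cells, from which sperm derive. All cultures came from testes of mice of the strain B6.129S7-Gt(ROSA)26Sor/J, aged 7 days, which carry an active LacZ reporter throughout the body, and had been kept for 2 months on SNL 76/7 feeder cells with 10 ng/mL GDNF and 0.5 ng/mL FGF2. The treated group received EPZ5676 at 2 µM for 7 days to inhibit DOT1L, the enzyme that methylates H3K79, and the control group received vehicle, which the protocols name as DMSO and the sample descriptions as EtOH. The 8 samples form 4 groups of 2, H3K79me2 and input for each condition, but a single peak list per condition was deposited, under replicate 1. No value below therefore has a replicate error, no test between conditions was possible, and how deeply the samples were sequenced is unknown here.

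Eukaryotic initiation factors bring the initiator tRNA, the small ribosomal subunit and the mRNA together. eIF2 delivers the initiator tRNA, and eIF2B recharges eIF2 with GTP. eIF3 holds the small subunit, and the eIF4 factors bind the cap of the mRNA and unwind its leader. eIF1, eIF1A and eIF5 select the start codon, and eIF5B joins the large subunit. Phosphorylation of eIF2 by its kinases and capture of eIF4E by the 4E-binding proteins are the main brakes on the process. H3K79me2 is placed by DOT1L over the first part of transcribed genes, downstream of their starts.

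The 10 listed markers of undifferentiated spermatogonia all had a control peak, and none had an EPZ5676 peak. All marker lists were chosen with earlier results of these data known, so their counts cannot test which cells were present. Of 10 markers of fibroblasts, 7 had a control peak and 4 an EPZ5676 peak. Among 6 markers of Sertoli and Leydig cells, 2 had a control peak and none an EPZ5676 peak. Over all autosomal protein-coding genes the shares were 54.2% (control) and 13.1% (EPZ5676), and 19.9% of control-marked genes had an EPZ5676 peak. The control list held 47774 peaks over 168.9 Mb and the EPZ5676 list 9182 peaks over 4.64 Mb.

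In control cells H3K79me2 peaks lay over nearly all initiation factor genes, and they covered close to 50% of the typical gene. Of the 53 genes, 49 had a control peak, against 54.2% of all autosomal protein-coding genes (11203 of 20665). Coverage was counted as the bases of the annotated gene span inside a peak, and a gene counted as marked with at least 1 bp. The median gene was covered over 46.5% of its span (quartiles 25.6 and 67.1%), where the median over all autosomal genes was 3.75%. At least 50% of the span was covered in 25 of the 53, beside 16.7% of all autosomal genes. The 4 without a peak in either list were Eif4e1b, Eif4ebp3, Eif3j2 and Eif4a3l1, all under 5 kb long.

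**Figure D1:**
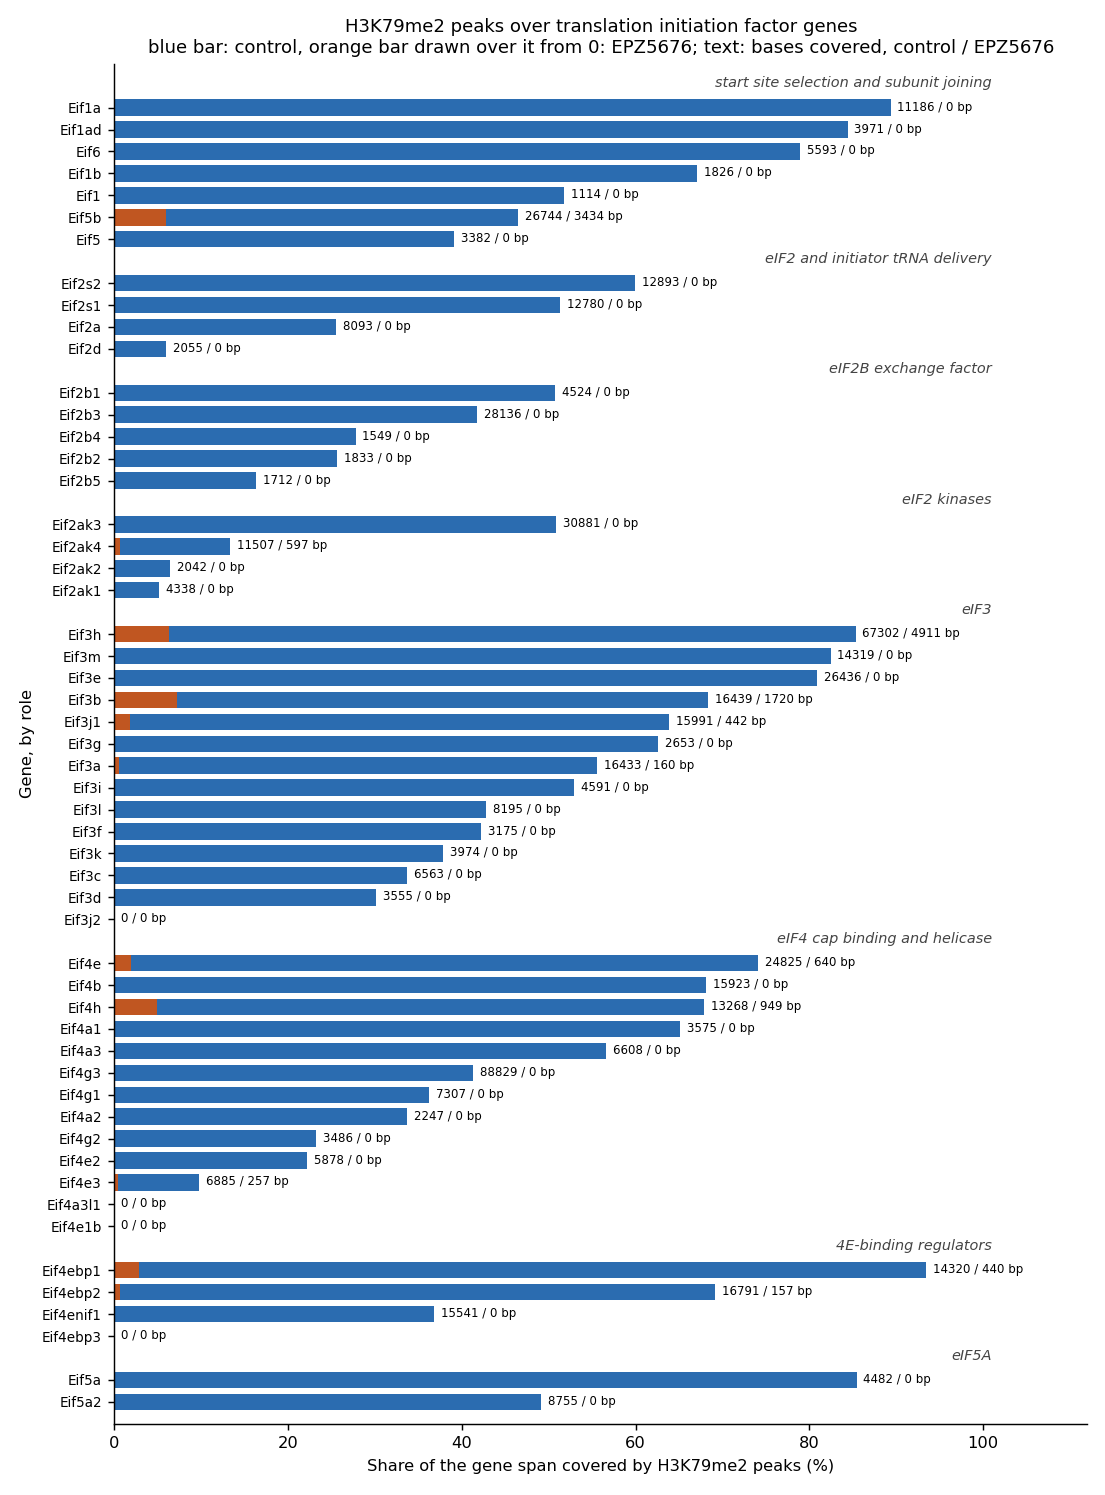
Share of each gene span covered by H3K79me2 peaks (x axis, %), with the 53 genes on the y axis grouped by role; blue bars are the control list, orange bars drawn over them from 0 are the EPZ5676 list, and the text gives bases covered in each. Eif4ebp1 has the highest share, 93.4%, and 4 genes have no bar.

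In each length class the share of initiation factor genes with a control peak stood above that of all autosomal genes. All 10 members of 5 to 10 kb had a control peak, as did 50.1% of the 2774 autosomal genes of that length. All 12 members of 10 to 20 kb had one, beside 59.3% of 3747 genes, and all 15 members of 20 to 50 kb, beside 66.1% of 4850. Of the 8 members up to 5 kb, 4 were marked, beside 24.8% of 4569 genes. The share of the span covered exceeded the median of the length class in 44 of 53 members. Among marked genes alone, 32 of the 49 marked members exceeded the median of the marked genes of their class. In the 5 to 10 kb class the marked members had a median of 46.5% covered and all marked genes one of 42.6%. In the 20 to 50 kb class the medians were 55.6 and 29.1%.

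**Figure D2:**
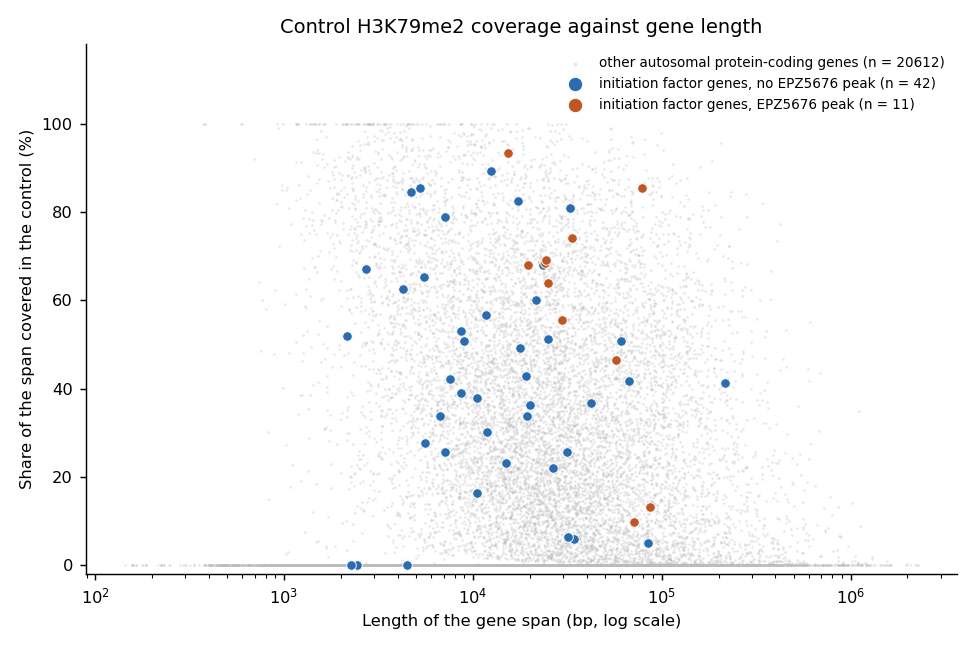
Length of the gene span (x axis, bp, log scale) against the share covered in the control (y axis, %); grey points are the other autosomal protein-coding genes, blue points the 42 initiation factor genes without an EPZ5676 peak and orange points the 11 with one. Coloured points run from 0 to 93.4%, while many grey points lie at 0.

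**Figure D3:**
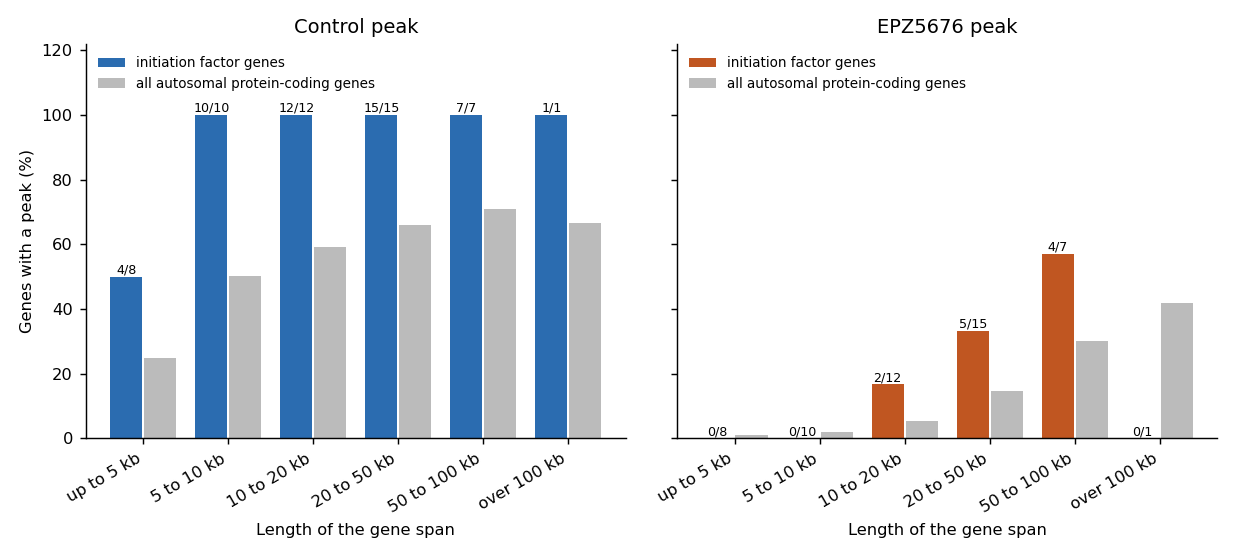
Share of genes with a control peak (left) and with an EPZ5676 peak (right) by length of the gene span; coloured bars are the initiation factor genes, with counts above, and grey bars all autosomal protein-coding genes. In the control, each class from 5 kb upwards has a peak on all of its initiation factor genes.

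Other gene sets of protein synthesis and turnover were also marked almost throughout in the control. The cytosolic ribosomal set took autosomal genes named Rpl, Rps or Rplp with a number and at most a short suffix. Genes named Rps6k were left out. All 79 genes of this set, which encode cytosolic ribosomal proteins and some relatives, had a control peak. Their median covered share was 69.4% over a median length of 3183 bp, against 17815 bp for the initiation factor genes. Of 78 mitochondrial ribosomal protein genes 77 were marked, with a median of 41.7% covered, and of 50 proteasome genes 47, with a median of 41.1%. An EPZ5676 peak lay on 0 of the 79 cytosolic ribosomal, 3 of the 78 mitochondrial ribosomal (3.85%) and 6 of the 50 proteasome genes, and on 11 of the 53 initiation factor genes (20.8%), beside 13.1% of all autosomal genes. The sets differ in gene length, and these differences were not tested.

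The promoters of the eIF4A family are shown because its members differ both in the mark and in the CpG dinucleotides of their promoters. eIF4A is the RNA helicase of the cap complex; Eif4a3 encodes the relative in the exon junction complex, and Eif4a3l1 is a short Eif4a3-like gene. Windows run from 220 bases before to the first 30 bases of the outermost RefSeq gene start of GRCm38.p6, 5′ to 3′ on the gene's strand, with CpG dinucleotides in capitals. The windows are Eif4a1 (chr11:69672394-69672643, minus strand), Eif4a2 (chr16:23107248-23107497, plus strand), Eif4a3 (chr11:119300014-119300263, minus strand) and Eif4a3l1 (chr6:136327319-136327568, plus strand).
Eif4a1: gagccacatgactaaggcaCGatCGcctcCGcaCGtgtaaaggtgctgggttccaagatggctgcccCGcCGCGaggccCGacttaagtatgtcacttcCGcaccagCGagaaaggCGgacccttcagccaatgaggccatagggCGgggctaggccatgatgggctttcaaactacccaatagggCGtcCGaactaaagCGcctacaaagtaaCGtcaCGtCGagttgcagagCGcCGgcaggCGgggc
Eif4a2: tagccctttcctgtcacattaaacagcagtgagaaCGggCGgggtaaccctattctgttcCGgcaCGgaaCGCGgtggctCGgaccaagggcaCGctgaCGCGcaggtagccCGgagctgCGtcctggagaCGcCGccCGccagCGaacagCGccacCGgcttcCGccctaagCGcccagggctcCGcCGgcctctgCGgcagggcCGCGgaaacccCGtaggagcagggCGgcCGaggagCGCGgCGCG
Eif4a3: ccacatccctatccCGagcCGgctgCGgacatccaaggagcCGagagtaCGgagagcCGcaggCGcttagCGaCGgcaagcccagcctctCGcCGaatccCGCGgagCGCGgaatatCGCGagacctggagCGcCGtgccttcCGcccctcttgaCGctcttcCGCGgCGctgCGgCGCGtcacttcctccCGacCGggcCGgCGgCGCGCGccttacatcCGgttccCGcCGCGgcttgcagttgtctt
Eif4a3l1: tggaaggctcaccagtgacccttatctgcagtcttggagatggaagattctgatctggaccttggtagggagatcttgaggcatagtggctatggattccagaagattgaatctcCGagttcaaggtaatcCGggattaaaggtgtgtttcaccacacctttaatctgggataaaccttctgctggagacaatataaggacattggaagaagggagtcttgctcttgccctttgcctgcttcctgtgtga

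The window held 21 CpG at Eif4a1, 32 at Eif4a2, 38 at Eif4a3 and 2 at Eif4a3l1. Eif4a1 was covered over 3575 bp (65.1%) in the control, Eif4a2 over 2247 bp (33.7%), Eif4a3 over 6608 bp (56.6%) and Eif4a3l1 over 0 bp. None of the 4 had an EPZ5676 peak, and the span of Eif4a2 overlaps Rfc4. A RefSeq window was given for 41 of the 53 genes, 40 of them marked in the control. Those 41 had a median of 20 CpG per window, from 2 at Eif4a3l1 to 44 at Eif1b, where all 16457 autosomal genes with a window had a median of 12. Over all genes the median was 19 with a control peak (9049 genes) and 3 without (7408 genes), so the count for the initiation factor genes was close to that of marked genes in general.

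The next windows belong to the 4 genes with the longest EPZ5676 coverage among those with a RefSeq window, and are shown in the same way: Eif4e, the cap-binding protein (chr3:138525971-138526220, plus strand), Eif3b (chr5:140419085-140419334, plus strand), Eif5b (chr1:37997790-37998039, plus strand) and Eif4h (chr5:134639380-134639629, minus strand).
Eif4e: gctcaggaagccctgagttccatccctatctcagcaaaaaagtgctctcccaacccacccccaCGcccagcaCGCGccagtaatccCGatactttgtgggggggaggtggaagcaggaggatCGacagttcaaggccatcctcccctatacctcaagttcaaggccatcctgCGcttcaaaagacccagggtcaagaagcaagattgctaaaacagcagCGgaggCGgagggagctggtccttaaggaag
Eif3b: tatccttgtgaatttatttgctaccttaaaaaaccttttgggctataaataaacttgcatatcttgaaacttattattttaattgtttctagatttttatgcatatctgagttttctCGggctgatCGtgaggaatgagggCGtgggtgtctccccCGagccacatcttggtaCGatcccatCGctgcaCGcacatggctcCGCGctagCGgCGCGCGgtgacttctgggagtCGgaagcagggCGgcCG
Eif5b: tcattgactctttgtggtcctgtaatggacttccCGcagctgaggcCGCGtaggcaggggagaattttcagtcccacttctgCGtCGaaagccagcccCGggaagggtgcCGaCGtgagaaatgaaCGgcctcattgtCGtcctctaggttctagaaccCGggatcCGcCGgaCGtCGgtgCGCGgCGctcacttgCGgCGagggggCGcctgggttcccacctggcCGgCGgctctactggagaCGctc
Eif4h: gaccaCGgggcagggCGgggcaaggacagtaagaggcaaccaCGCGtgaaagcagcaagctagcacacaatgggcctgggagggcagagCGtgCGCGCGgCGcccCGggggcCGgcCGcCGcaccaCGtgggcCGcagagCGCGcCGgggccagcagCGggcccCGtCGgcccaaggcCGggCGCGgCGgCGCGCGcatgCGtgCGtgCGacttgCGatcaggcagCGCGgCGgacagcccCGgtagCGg

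These windows held 8 CpG at Eif4e, 16 at Eif3b, 24 at Eif5b and 37 at Eif4h, from below to above the median of 12 over all genes. Motifs were searched on both strands of the same 250-base windows. The letters CACGTG, the E-box bound by MYC and its relatives, stood in 8 of 41 windows (19.5%), beside 7.24% of all 16457; they were in the windows of Eif1b, Eif3a, Eif3f, Eif3k, Eif4a1, Eif4g1, Eif4h and Eif5a2. CCGGAAG, a core of ETS factor sites, stood in 13 (31.7%, all genes 11.3%), and GGGCGG, the GC box, in 28 (68.3%, all genes 45.2%). CCAAT stood in 14 (34.1%, all genes 35.5%), TATAAA in 3 (7.32%, all genes 11.8%) and AAGATGGC, a core of YY1 sites, in 2 (4.88%, all genes 2.34%). The E-box, GC box and ETS letters each hold a CpG, which these windows held more of than those of all genes (medians of 20 and 12), and the letters of all motifs were chosen after the peak values were known.

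The mark began shortly downstream of the gene start. Among the 40 marked genes with a RefSeq start, the first covered base lay a median of 212.5 bp after the outermost start (quartiles 105 and 403.5 bp), and in all marked genes with a start and a covered base after it (8979) the median was 386 bp. It lay within 1000 bp in 39 of the 40, beside 79.7% of all marked genes. The start base itself was covered in 3 of the 40, Eif2b1, Eif3d and Eif3l, beside 11.9% of all 9049 marked genes with a start. At Eif2s1, which encodes the eIF2 subunit that the stress kinases phosphorylate, the peak began 10 bp after the start. Eif4e was the exception beyond 1000 bp, with its first covered base 1675 bp after the outermost start and 598 bp after a further RefSeq start. Eif5a began 765 bp after the outermost of 6 listed starts and 82 bp after the nearest of them.

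Coverage peaked about 1 kb into these genes. Of the 41 genes with a start, 3 were covered at the start, 33 at 500 bp, 39 at 1000 bp, 37 at 2000 bp, 22 at 5000 bp and 16 at 10000 bp downstream. Positions beyond the end of a short gene were kept in these counts. At 1000 bp this is 95.1%, beside 76.6% of all 9049 marked genes with a start, while at 5000 bp the shares were 53.7 and 54.4%. A median of 86.8% of each gene's covered bases lay in the first 50% of its span, and 92.1% over all marked genes. Upstream, 14 of 41 were covered at 1000 bp before the start, beside 26.2% of all marked genes; which of these upstream peaks belong to a neighbouring gene was not tested.

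**Figure D4:**
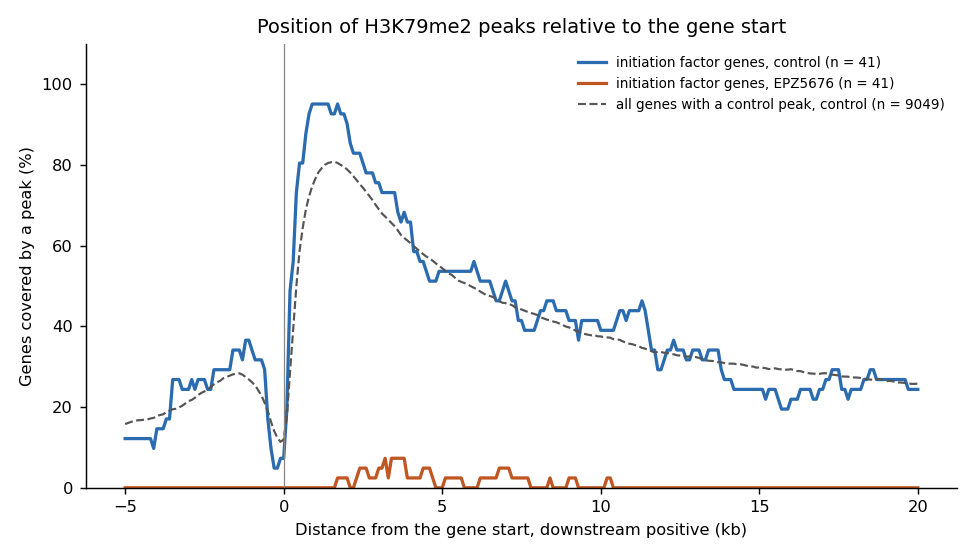
Share of genes covered by a peak (y axis, %) at each distance from the gene start (x axis, kb, downstream positive); the blue line is the control and the orange line EPZ5676 for the 41 initiation factor genes with a RefSeq start, and the dashed line the control for all 9049 marked genes with a start. The blue line rises from 7.32% at the start to 95.1% at 1000 bp, and the orange line first leaves 0 at 1700 bp.

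All 7 genes of start codon selection and subunit joining were marked in the control, beside 54.2% of all autosomal genes. Eif1a, encoding the scanning factor eIF1A (chromosome 18, 46597704 to 46610225), was covered over 11186 bp, or 89.3% of its span. The paralogues Eif1 and Eif1b had 1114 and 1826 bp (51.8 and 67.1%). Eif1 (chromosome 11, 100319949 to 100322099) had the shortest coverage of any marked member, and at 2151 bp it was also the shortest marked gene. Eif5, the GTPase-activating partner of eIF2, had 3382 bp (39.1%), and Eif6, which keeps the large subunit free until joining, had 5593 bp (78.9%). Eif1ad, a gene with an eIF1A-like domain, had 3971 bp (84.4%), and its span overlaps Banf1. Eif5b, the GTPase of subunit joining (chromosome 1, 37998010 to 38055579), had 26744 bp (46.5%) covered in control cells, and 3434 bp with EPZ5676; its span overlaps Rev1. Eif5b was the gene of this group with an EPZ5676 peak, which 19.9% of all control-marked genes had.

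The genes of eIF2 and its exchange factor all had a control peak and none had an EPZ5676 peak. Over all autosomal genes 54.2% had a control peak, and 19.9% of the control-marked genes had an EPZ5676 peak. Eif2s1 and Eif2s2, the alpha and beta subunits, had nearly equal coverage, 12780 bp (51.2%) and 12893 bp (60.0%). Eif2a and Eif2d, which encode other proteins that can deliver initiator tRNA, had 8093 bp (25.5%) and 2055 bp (5.96%). The span of Eif2a overlaps Serp1 and that of Eif2d overlaps Rassf5. Among the 5 eIF2B subunit genes, Eif2b3 (chromosome 4, 117019399 to 117086852) had 28136 bp (41.7%) in 6 peaks, and the other 4 had less than 5 kb each. These were Eif2b1 with 4524 bp (50.7%), Eif2b2 with 1833 bp (25.6%), Eif2b5 with 1712 bp (16.3%) and Eif2b4 with 1549 bp (27.7%). The spans of these 5 genes ran from 5582 to 67454 bp.

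The 4 eIF2 kinase genes had low covered shares apart from Eif2ak3. Eif2ak3, encoding PERK of the endoplasmic reticulum (chromosome 6, 70844484 to 70905241), had 30881 bp (50.8%) in the control and no EPZ5676 peak. Eif2ak4, encoding GCN2, the sensor of uncharged tRNA, had 11507 bp (13.3%) in control cells, 597 bp of which remained covered with EPZ5676. Eif2ak1, the haem-regulated kinase, had 4338 bp (5.11%, the lowest share of any marked member), and Eif2ak2, encoding PKR, the kinase activated by double-stranded RNA, had 2042 bp (6.37%). All but Eif2ak2 are over 60 kb long, and the spans of Eif2ak1 and Eif2ak2 overlap another gene.

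Of 14 eIF3 genes 13 were marked in the control (54.2% of all autosomal genes). An EPZ5676 peak lay on 4 of these 13, beside 19.9% of all control-marked genes. Eif3h (chromosome 15, 51786563 to 51865461) carried the widest control peak of all members, 65949 bp, and was covered over 67302 bp (85.3%), and over 4911 bp (6.22%) with EPZ5676. Eif3b, a scaffold subunit (chromosome 5, 140419305 to 140443358), had 16439 bp (68.3%) and 1720 bp (7.15%). Eif3a, the largest subunit, had 16433 bp (55.6%) and 160 bp, and Eif3j1 had 15991 bp (63.8%) and 442 bp, with a span that overlaps Spg11. Eif3e and Eif3m had high shares, 26436 bp (80.9%) and 14319 bp (82.4%), without an EPZ5676 peak. The span of Eif3m overlaps Ccdc73. The other marked subunits, Eif3c, Eif3d, Eif3f, Eif3g, Eif3i, Eif3k and Eif3l, had 2653 (Eif3g) to 8195 bp (Eif3l). Eif3j2, a short paralogue of Eif3j1 (chromosome 18, 43475418 to 43477836), had no peak in either list.

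In the eIF4 group 11 of 13 genes were marked in the control and 3 had an EPZ5676 peak, beside 54.2 and 13.1% of all autosomal genes. Eif4g3 (chromosome 4, 137991779 to 138207086), the longest member, had 88829 bp (41.3%) in 31 control peaks and no EPZ5676 peak. The other scaffold genes had 7307 bp (Eif4g1, 36.2%) and 3486 bp (Eif4g2, 23.2%). Among the cap-binding paralogues the coverage differed widely: Eif4e had 24825 bp (74.1%) in control cells, and 640 bp with EPZ5676. Eif4e2 had 5878 bp (22.1%) in the control and none after EPZ5676, and Eif4e3 had 6885 bp (9.70%) and 257 bp, with a span that overlaps Gpr27. Eif4e1b, known for its expression in oocytes, had no peak in either list. The helicase cofactors Eif4b and Eif4h had 15923 bp (68.0%) and 13268 bp (67.9%) in the control, and Eif4h kept 949 bp after EPZ5676 while Eif4b had none.

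The regulators of eIF4E and the eIF5A pair completed the set. Eif4ebp1 (chromosome 8, 27260327 to 27275656), encoding a repressor of eIF4E that mTOR controls, had the highest covered share of all members, 14320 bp or 93.4%, and 440 bp after EPZ5676. Eif4ebp2 had 16791 bp (69.1%) and 157 bp, and Eif4ebp3 had no peak in either list. Eif4enif1, which carries eIF4E into the nucleus, had 15541 bp (36.8%) in the control and none after EPZ5676. Its span overlaps Sfi1 and Gm51877. Eif5a, whose product carries the amino acid hypusine, had 4482 bp (85.4%), with a span that overlaps Gps2, and its paralogue Eif5a2 had 8755 bp (49.1%). Neither had an EPZ5676 peak.

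After EPZ5676 the mark was called over 11 of the 53 genes and covered a small part of each. Over all autosomal genes 13.1% had an EPZ5676 peak, and of the control-marked genes 19.9% did, beside 11 of 49 here. Summed over members, 604505 bp were covered in control cells, and 13707 bp with EPZ5676, a ratio of 44.1, and the ratio over all autosomal genes was 43.4. In the 11 genes the covered length after EPZ5676 ran from 157 bp (Eif4ebp2) to 4911 bp (Eif3h), with a median of 597 bp, or 1.91% of the span. No member had a peak after EPZ5676 alone, and 2.27% of all autosomal genes did. Only the 4 members without a control peak could have had one, so this count says little about the set. The 4 fibroblast markers with an EPZ5676 peak were Twist2, Prrx1, Fbn1 and Sparc. Summed over that list, 47761 bp were covered in control cells, and 8872 bp with EPZ5676, and Col1a2, Col3a1 and Vim were at 0 in both lists. The spermatogonial list had 362802 and 0 bp. The part of feeder cells in the EPZ5676 peaks was not tested.

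All 22 EPZ5676 peaks in these genes lay wholly inside a control peak. Of the 6648 EPZ5676 peaks in autosomal genes, 75.2% overlapped a control peak at all. The 6648 include peaks in 469 genes without a control peak, while all members with an EPZ5676 peak had one, so the sets are unlike. The 22 peaks were 147 to 1599 bp wide, with a median of 441 bp. Their fold enrichment as deposited by the authors, the ratio of signal to background in a peak, ran from 2.57 to 3.18. The deposited −log10 q-value was at most 2.55, at Eif3j1. Eif3h held 6 of the 22 and Eif5b 3. The 14 peaks in genes with a RefSeq start lay 1613 bp (Eif3j1) to 10131 bp (Eif4e) after it, with a median of 3904 bp. Control coverage began within 1000 bp of the start in 39 of 40 genes. That value is the first covered base of each gene, while the 14 distances include later peaks of the same gene.

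EPZ5676 peaks lay mostly on members with at least 10000 bp of control coverage, and mostly on those with strongly enriched control peaks. No EPZ5676 peak lay on the 20 members with up to 5000 bp of control coverage (4.87% of 4986 such genes) and 1 on the 9 members with over 5000 and up to 10000 bp (12.8% of 2172). It lay on 10 of the 20 members with at least 10000 bp, beside 42.2% of the 4045 such genes. Within these, it lay on 7 of 13 members with up to 20000 bp (53.8%, all genes 26.6%) and on 3 of 7 with more (42.9%, all genes 54.9%), so the share of members, unlike that of all genes, was not higher in the longer class, which holds few members. The highest control fold had a median of 6.55 in the 11 genes and 3.95 in the 38 marked genes without an EPZ5676 peak, with ranges that overlapped (2.39 to 8.02 and 2.19 to 7.23). With a highest fold of at least 6, a value chosen after the data were seen, 8 of 9 members had an EPZ5676 peak, beside 58.5% of 751 genes, and the exception was Eif4b. Under 6 it was 3 of 40, beside 17.1% of 10452. All 9 members at a fold of 6 or more had at least 10000 bp of control coverage, while the 751 genes were not limited in covered length. These sets are therefore unlike, and genes that meet both limits were not counted. Of the 11 members with at least 10000 bp of coverage and a highest fold under 6, 2 had an EPZ5676 peak, Eif3h (fold 4.89) and Eif2ak4 (4.00), beside 38.0% of 3466 such genes. The other 9 were Eif4g3 (3.15), Eif2b3 (3.46), Eif3m (3.57), Eif2ak3 (4.24), Eif2s1 (4.85), Eif3e (4.86), Eif4enif1 (4.88), Eif2s2 (5.19) and Eif1a (5.23).

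**Figure D5:**
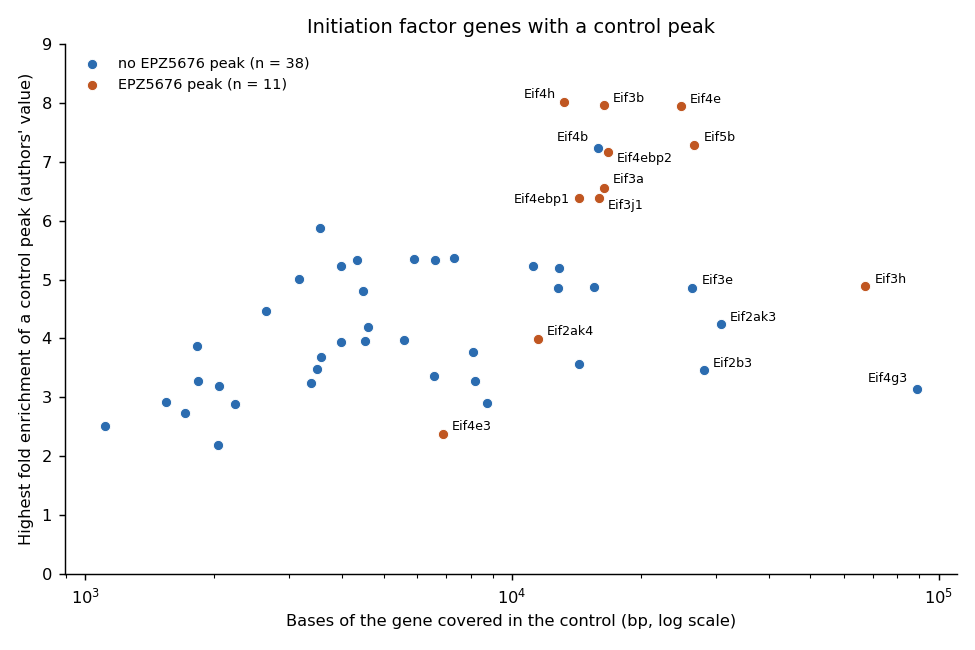
Bases covered in the control (x axis, bp, log scale) against the highest fold enrichment of a control peak as deposited (y axis) for the 49 marked initiation factor genes; orange points had an EPZ5676 peak (n = 11) and blue points had none (n = 38). Of the 9 points at a fold of 6 or more, all but Eif4b are orange, and Eif4g3, with the longest coverage, is blue.

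Other genes of translation were also marked almost throughout in the control. Of 36 listed genes for elongation, termination, poly(A) binding, mTOR signalling and the stress response, 35 were marked in the control, with a median of 49.1% covered, beside 54.2% of all autosomal genes marked and a median of 3.75%. An EPZ5676 peak lay on 5 of the 36, beside 13.1% of all autosomal genes. Eef1a2, the elongation factor of muscle and neurons, had no peak in either list, while its paralogue Eef1a1 had 1111 bp (34.0%) in the control. The 5 with an EPZ5676 peak were Larp1, which binds mRNAs of ribosomal proteins (44842 bp in the control, 5986 bp after EPZ5676), Rptor of the mTOR complex (157284 and 3403 bp), Gspt1, a termination factor (15671 and 959 bp), Eef1d (10382 and 247 bp) and Paip2, which binds poly(A)-binding protein (16083 and 209 bp). The spans of Gspt1, Eef1d and Paip2 overlap another gene. Etf1, the other termination factor, had 22940 bp (78.5%) at a highest fold of 8.89 and no EPZ5676 peak. Atf4, Ddit3, Ppp1r15a and Ppp1r15b, listed here for the stress response, were covered over 54.7 to 96.3% of their spans in control cells. None of them had an EPZ5676 peak, and the spans of Ddit3 and Ppp1r15a overlap another gene.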

How the data were processed

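Of the 8 samples, 2 have a broad peak list, replicate 1 of each H3K79me2 group, and these lists were used. Replicate pooling, aligner, peak caller and the handling of reads with several matches were not given in the sources used here; near-identical copies such as Eif3j1 and Eif3j2 could lose such reads. The submitters' processing notes name the mm10 build, deepTools, Trimmomatic and bcl2fastq (2.20.0.422). Per peak, the authors deposited a score, 10 times the −log10 q cut to a whole number except in 4 control peaks. They also deposited a fold enrichment (ratio to background), a −log10 p-value and a −log10 q-value, which were used as given. The lowest −log10 p was 2.36 (control) and 4.03 (EPZ5676).

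Covered bases per gene span were counted with Python 3.11.15, numpy 2.4.6 and pandas 2.3.3, and the counting was checked on simulated intervals. A peak over overlapping genes counted for each of them, and 13 of the 53 members overlap another protein-coding gene. Gene starts are the outermost RefSeq starts (GRCm38.p6), given for 41 members. Sequencing depth is unknown here, so covered lengths have no interval. Members, related genes, markers and alternatives were chosen with earlier results of these data known. Every member was described, those with the longest, shortest or no control coverage or with an EPZ5676 peak, and paralogues, in full.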

Additional observations from a re-analysis of the deposited data

How the results depend on the processing

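The count of 49 genes with a control peak ranged from 37 (of the 40 that overlap no other gene) to 49 under 9 alternatives. Under the same alternatives the share of autosomal genes with a control peak ran from 44.5 to 55.5%. The median covered share of 46.5% ranged from 39.1 to 50.8% under 6 alternatives. The count of 11 genes with an EPZ5676 peak was less stable. It was 6 with at least 500 bp covered, 0 with at least 10% of the span covered, 3 with a −log10 q of at least 2, 3 with peaks of at least 1000 bp, and 7 of 41 in the first 5000 bp from the start. The corresponding shares of all autosomal genes were 8.23, 0.387, 2.02, 2.56 and 7.27%. Each of these demands longer or stronger peaks or a shorter window by construction. The count was 8 of the 40 without overlap, 11 at a common −log10 p of 4.03 and 12 with 1000 bp added on both sides. It was 8 of 45 without the eIF2 kinases and the 4E-binding regulators, an alternative chosen after seeing the data. Over autosomal genes these settings gave 13.2, 13.1, 13.3 and 13.0%. No paired analysis was possible because each condition has a single peak list, and no replicate could be left out for the same reason. Read depth is unknown here, and its part in the number of weak peaks called was not tested.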

Other observations

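The initiation factor genes on the sex chromosomes and the pseudogenes of the family lie outside the rule above. On X, Eif1ax had 3404 bp covered in the control (19.5% of its span) and Eif2s3x, the gamma subunit of eIF2, had 2420 bp (10.1%). On Y, Eif2s3y had 656 bp (1.70%). Eif1a, the autosomal relative of Eif1ax, was covered over 89.3%. The counting made no correction for the copy number of X and Y, and its part in this difference was not tested. The EPZ5676 list has no peak on X or Y, on any gene. Of 11 annotated pseudogenes whose symbols start in the same way, 1 had a control peak, Eif2s3x-ps1 with 202 bp (12.5%), and none had an EPZ5676 peak. These pseudogenes are 372 to 2432 bp long, and 24.8% of autosomal protein-coding genes up to 5 kb had a control peak. The share over all annotated pseudogenes was not counted.

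Some small RNA genes inside the member genes lay under control peaks. Of 13 small nucleolar RNA genes and 4 miRNA genes in 10 hosts, 6 were covered, each over its whole length. None was covered by an EPZ5676 peak. Of the miRNA genes 1 was covered, Mir7038, while Mir3084-2, Mir6399 and Mir1956 were not. The share over all small RNA genes was not counted, so the count of 6 cannot be read as particular to these hosts. In Eif4a2, Snord2 was covered 1485 bp after the start, whereas Snora81, 3302 bp after it, was not. Mir7038 in Eif3b lay 8034 bp after the start inside the control domain, and Mir1956 in Eif4e lay 230 bp after the outermost start, before the first covered base. Whether these miRNAs are made in these cells was not measured. Their mature RefSeq sequences, with the seed (bases 2 to 8) in capitals, are shown for this contrast between a covered and an uncovered gene.
mmu-miR-7038-5p: uGUAGAAGgaagggcugcugug
mmu-miR-7038-3p: cACUGCUCcugccuucuuacag
mmu-miR-1956: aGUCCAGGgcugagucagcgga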
